A study of Mus musculus with 24 samples.

Results

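The genes described here are 10 mouse genes whose proteins cut the amyloid precursor protein (APP), break down its amyloid-beta peptide, or carry lipid and amyloid-beta in the brain. They were chosen by symbol and not by any measured value: the sheddases Bace1 and Adam10, the gamma-secretase subunits Psen2, Ncstn, Aph1a and Psenen, the peptidases Ide and Mme, and the apolipoproteins Apoe and Clu. All 10 were found once each among the 56750 entries of the count table, and all 10 were among the 20354 genes that passed the filter on low counts. None of the 10 differed between groups at an adjusted p under 0.05 with edgeR in any of 13 tests. Ide was the member under an unadjusted p of 0.05 in the most tests: its level was lower in isolated mice without treatment than in their GH counterparts, and higher in the WT arm than in untreated mice. Its level also fell into bands that crossed the groups, and what sets these bands was not tested.

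Expression was measured by bulk RNA sequencing of medial prefrontal cortex in 24 libraries, 4 in each of 6 groups, with total counts from 33683587 to 51274917. The groups were socially isolated mice with an enriched environment (SI_EE), isolated mice of the WT arm (SI_WT), isolated mice without treatment (SI_Con), GH mice with an enriched environment (GH_EE), GH mice of the WT arm (GH_WT) and GH mice without treatment (GH_Con). The labels spell out neither GH nor WT, give no age and no sex, and put the genotype 5xFAD on all 24 samples, the WT arm included. Nothing in them tells whether the libraries of a group come from separate animals. Read from Xist and genes of the Y chromosome, every group held libraries of both sexes, so its libraries cannot all come from the same animal. GH_Con 4 read as male and the other GH_Con libraries as female. SI_Con 1 and SI_Con 2 read as female, and SI_Con 3 and SI_Con 4 as male. Each test sets a difference against a spread between libraries that may be partly technical. The 5xFAD line carries transgenes with familial Alzheimer's disease mutations, human APP among them, driven by the neuronal Thy1 promoter.

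The table's human APP entry was read in all 24 libraries, from 337 CPM (counts scaled to a common library total) in SI_EE 1 to 4685 CPM in SI_WT 1, and from 2199 to 4685 CPM in the 8 libraries of the WT arm. The 12 pyramidal neuron markers, which mark cortical excitatory cells, averaged 6.98 log2 CPM or more in 23 libraries and 5.70 in SI_EE 1. In SI_EE 1 the 10 cerebellar markers averaged 8.63 log2 CPM, against 2.28 or less in the other 23 libraries. That library therefore goes against its tissue label, and some results that use it are also given without it. For thalamus and habenula the means of 10 markers were highest in GH_WT 2 (4.72 log2 CPM) and GH_WT 4 (4.74). In GH_Con 2, SI_Con 2, SI_Con 3 and SI_WT 4 longer genes read lower than in the other libraries.

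Amyloid-beta is made when beta-secretase and then gamma-secretase cut APP, whereas alpha-secretase cuts within the amyloid-beta stretch and so prevents its release. Gamma-secretase is a membrane complex of a presenilin, nicastrin, an Aph1 protein and the small subunit encoded by Psenen. Released peptide is degraded by enzymes such as insulin-degrading enzyme and neprilysin, or is bound by apolipoprotein E and clusterin, which in the brain come mainly from astrocytes, and in the case of apolipoprotein E also from microglia near plaques.

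The promoters of 4 members are shown because Ide and Apoe had the differences at unadjusted p between SI_Con and GH_Con, and Adam10 and Psenen varied in opposite directions between libraries. The RefSeq tables (GRCm38.p6) held a window from 250 bases before to 50 bases after the start for 8 of the 10 members, with no entry for Bace1 and Clu. The windows shown are chr9:70678732-70679031 (plus strand) for Adam10, chr7:30563578-30563877 (minus) for Psenen, chr19:37334495-37334794 (minus) for Ide and chr7:19699139-19699438 (minus) for Apoe. The Ide start in that table lies 3308 bases inside the gene as GENCODE M21 draws it, and the starts of the other 3 lie within 15 bases of it. Each is written 5′ to 3′ on the gene's strand, with capitals for any match on either strand to 6 motifs. They were the E-box letters CACGTG, the AP-1 letters TGANTCA, the heat shock element letters GAANNTTC, the GC-box letters GGGCGG, the CCAAT box and the TATA box letters TATAAA.
Adam10: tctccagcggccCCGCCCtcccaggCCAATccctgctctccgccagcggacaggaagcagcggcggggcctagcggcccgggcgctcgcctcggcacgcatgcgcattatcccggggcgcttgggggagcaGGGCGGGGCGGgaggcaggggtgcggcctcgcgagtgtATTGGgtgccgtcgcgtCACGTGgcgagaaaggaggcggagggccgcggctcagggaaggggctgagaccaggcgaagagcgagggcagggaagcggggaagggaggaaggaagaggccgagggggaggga
Psenen: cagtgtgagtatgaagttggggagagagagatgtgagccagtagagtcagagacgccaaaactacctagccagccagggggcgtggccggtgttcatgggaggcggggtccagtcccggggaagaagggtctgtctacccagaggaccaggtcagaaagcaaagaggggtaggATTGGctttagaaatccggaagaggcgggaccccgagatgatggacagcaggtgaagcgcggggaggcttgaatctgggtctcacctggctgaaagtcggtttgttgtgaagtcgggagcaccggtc
Ide: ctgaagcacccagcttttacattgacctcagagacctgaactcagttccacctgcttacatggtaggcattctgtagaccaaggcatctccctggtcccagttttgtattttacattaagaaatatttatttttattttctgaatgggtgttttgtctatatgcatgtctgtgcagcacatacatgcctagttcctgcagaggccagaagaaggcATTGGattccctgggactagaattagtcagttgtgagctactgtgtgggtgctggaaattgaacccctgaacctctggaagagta
Apoe: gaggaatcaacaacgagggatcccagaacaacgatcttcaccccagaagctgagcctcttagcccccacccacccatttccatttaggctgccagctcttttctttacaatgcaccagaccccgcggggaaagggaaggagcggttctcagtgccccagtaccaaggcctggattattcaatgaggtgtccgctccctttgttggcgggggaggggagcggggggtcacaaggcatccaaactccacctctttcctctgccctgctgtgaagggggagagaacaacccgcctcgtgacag
The Adam10 window held 1 CACGTG at position -64 (counted back from the start), 3 matches to GGGCGG, 2 of which share a base, and 2 to CCAAT. The Ide and Psenen windows each held 1 match to CCAAT, at positions -35 and -77, and the Apoe window held no match to the 6 motifs. Among 32851 windows of all genes, 7.15% held CACGTG, 35.7% GGGCGG, 37.4% CCAAT, 13.6% TATAAA, 7.81% TGANTCA and 7.86% GAANNTTC. The share of G and C was 73.3% in the Adam10 window, 58.3% for Psenen, 57.7% for Apoe and 44.0% for Ide, against a median of 52.7% over all windows. A match describes the letters and not a bound site.

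Levels of different genes were compared only per kilobase of exon (CPM per kb), as means over the 24 libraries. The apolipoproteins stood highest, Apoe at 207 ± 41.9 and Clu at 153 ± 18.8 CPM per kb (SD, n = 24). Psenen (20.2), Adam10 (17.2), Bace1 (16.2), Ncstn (14.4), Ide (11.4) and Aph1a (8.29 CPM per kb) followed, then Psen2 at 2.75 and Mme at 1.09 CPM per kb. The alpha-secretase gene Adam10 and the beta-secretase gene Bace1 were at a like level per length, with a median ratio of 1.03 (0.53 to 2.16) and Adam10 higher in 17 of 24 libraries. Apoe was above Clu in 20 of 24 libraries, with a median ratio of 1.35. Among the gamma-secretase subunits, Ncstn was above Psen2 in 24 of 24 libraries (median ratio 5.46) and Psenen above Psen2 in 24 of 24 (median ratio 7.01). Of the 2 peptidases, Ide was above Mme in 24 of 24 libraries, with a median ratio of 9.53 and a range of 4.37 to 69.6.

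**Figure D1:**
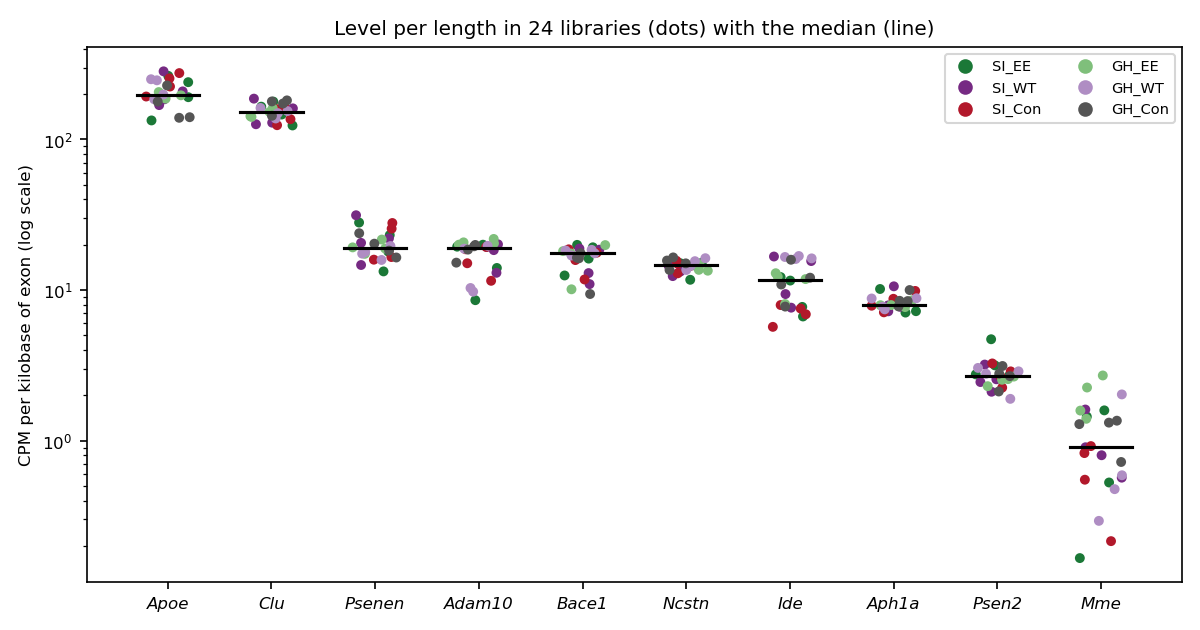
Levels of the 10 genes in CPM per kilobase of exon, on a log axis, with a dot for each of the 24 libraries. Apoe and Clu sit above 120 in every library. Mme spans 0.166 to 2.71 and overlaps Psen2 (1.89 to 4.71), and the other genes lie between Psen2 and the apolipoproteins.

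Bace1, the beta-secretase (ENSMUSG00000032086, GRCm38 chromosome 9, 45838580 to 45864399, plus strand), had 79.3, 102.7, 126.7 and 122.1 CPM in SI_EE, 69.5, 119.7, 117.7 and 82.3 in SI_WT, and 112.4, 100.4, 74.6 and 118.3 in SI_Con. It had 126.3, 111.1, 64.2 and 115.1 CPM in GH_EE, 107.6, 111.4, 117.4 and 116.2 in GH_WT, and 104.2, 103.2, 59.8 and 111.6 in GH_Con. Libraries of every group but GH_WT included a low one: 6 libraries lay at 82.3 CPM or less and the other 18 at 100.4 CPM or more. The 6 were SI_EE 1, SI_WT 1, SI_WT 4, SI_Con 3, GH_EE 3 and GH_Con 3, so the low level crossed the groups. Group means were highest in GH_WT (113 ± 4.53 CPM) and lowest in GH_Con (94.7 ± 23.6 CPM), and no group was separate from the next in that order. On the opposite strand 975 exonic bases overlap Rnf214, and since the use of strand in counting is not given in the sources used here, reads of the overlapping genes cannot be told apart.

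Adam10, the main alpha-secretase of neurons (ENSMUSG00000054693, chromosome 9, 70678997 to 70780229, plus strand), had 68.9, 42.1, 98.3 and 95.4 CPM in SI_EE, 94.99, 98.9, 90.5 and 64.0 in SI_WT, and 94.98, 74.0, 56.6 and 91.6 in SI_Con. It had 100.5, 98.4, 107.3 and 101.9 CPM in GH_EE, 47.9, 50.7, 96.6 and 92.5 in GH_WT, and 95.9, 74.7, 91.2 and 97.9 in GH_Con. GH_EE was the tight and high group. Its lowest library, at 98.36 CPM, was narrowly above the highest of SI_EE (98.30) and of GH_Con (97.93), and below SI_WT 2 (98.90). The means were 102 ± 3.83 CPM in GH_EE and 89.9 ± 10.5 CPM in GH_Con (edgeR log2 fold change 0.18, 95% interval -0.32 to 0.69, adjusted p = 0.941). Between 76.2 ± 26.3 CPM in SI_EE and 102 ± 3.83 CPM in GH_EE the log2 fold change was -0.42, with a 95% interval of -0.93 to 0.08 and an edgeR adjusted p of 0.644. Across all 24 libraries 8 lay at 74.7 CPM or less and 16 at 90.5 or more, and the low 8 came from every group except GH_EE.

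**Figure D2:**
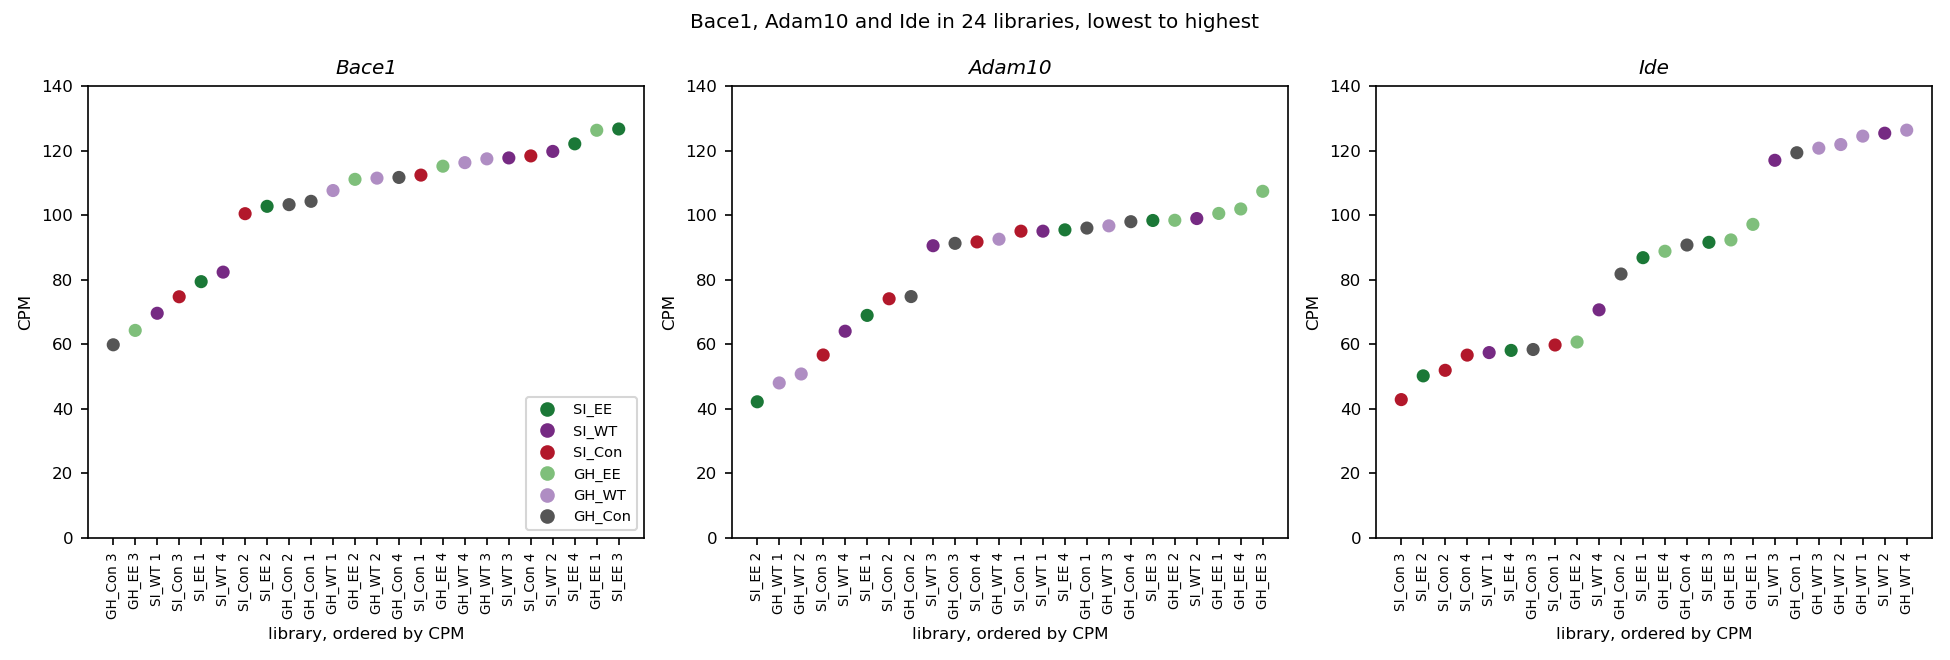
CPM of Bace1, Adam10 and Ide in each of the 24 libraries, ordered from lowest to highest within each gene and coloured by group. Bace1 steps between 82.3 and 100.4 CPM and Adam10 between 74.7 and 90.5 CPM with libraries of most groups on both sides, whereas the 7 libraries of the top Ide step, at 117 CPM or more, include all 4 of GH_WT.

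Of the 10 members, Ncstn had the smallest coefficient of variation over the 24 libraries (8.20%), followed by Aph1a (12.02%). Ncstn, which encodes nicastrin, the substrate-receptor subunit (ENSMUSG00000003458, chromosome 1, 172066013 to 172082795, minus strand), ran from 46.5 to 65.5 CPM over 24 libraries, with group means of 54.5 ± 4.35 in SI_WT to 60.4 ± 4.85 in GH_Con. Aph1a, which encodes the scaffold subunit (ENSMUSG00000015750, chromosome 3, 95893969 to 95898288, plus strand), ran from 24.5 to 36.5 CPM, with group means of 27.7 ± 1.26 in GH_EE to 30.0 ± 3.23 in GH_Con. Neither gene had a group mean that stood apart from its neighbour in the order of groups. Their log2 fold changes lay between -0.13 and 0.03 over the 7 comparisons of group pairs. Exons of Ncstn overlap those of Copa by 195 bases and those of Aph1a overlap Car14 by 445 bases, on the opposite strand in both cases.

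Psenen, the small subunit needed for presenilin cleavage (ENSMUSG00000036835, chromosome 7, 30561863 to 30563627, minus strand), had 35.8, 29.6, 17.0 and 22.98 CPM in SI_EE, 18.7, 28.1, 26.2 and 40.0 in SI_WT, and 21.1, 32.6, 35.5 and 20.3 in SI_Con. In GH mice it was narrower, at 22.2 to 27.6 CPM in GH_EE, 20.2 to 25.0 in GH_WT and 21.0 to 30.4 in GH_Con. The highest libraries were SI_WT 4, SI_EE 1 and SI_Con 3, followed by SI_Con 2. SI_WT 4, SI_Con 3 and SI_Con 2 are among the 4 libraries in which longer genes read lower, and SI_EE 1 held cerebellar markers. GH_Con 2, the other of those 4, had 21.0 CPM. The lowest libraries, SI_EE 3 at 17.0 and SI_WT 1 at 18.7 CPM, are not among these. The part of these libraries in the wider range of the isolated groups was not tested. Psen2, which encodes a presenilin, a catalytic subunit (ENSMUSG00000010609, chromosome 1, 180227004 to 180263438, minus strand), had 20.4, 11.7, 11.9 and 13.7 CPM in SI_EE, against 11.5, 11.1, 10.99 and 9.96 in GH_EE. All 4 SI_EE libraries were above all 4 GH_EE libraries, and the highest was SI_EE 1, the library with cerebellar markers. The means were 14.4 ± 4.08 CPM in SI_EE and 10.9 ± 0.668 CPM in GH_EE, a log2 fold change of 0.41 ± 0.18 (SE; 95% interval 0.03 to 0.79; edgeR adjusted p = 0.560). Without SI_EE 1 it was 0.19, with an unadjusted edgeR p of 0.260. The pyramidal neuron markers also did not overlap: the SI_EE libraries averaged 5.70 to 7.38 log2 CPM of them and the GH_EE libraries 7.44 to 7.48, and their part in the Psen2 levels was not tested. In the other 4 groups Psen2 ranged from 8.21 to 14.1 CPM.

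Ide, which encodes insulin-degrading enzyme, a metallopeptidase that cleaves insulin and monomeric amyloid-beta (ENSMUSG00000056999, chromosome 19, 37268743 to 37337852, minus strand), had 86.8, 50.1, 91.5 and 58.0 CPM in SI_EE, 57.3, 125.4, 117.0 and 70.6 in SI_WT, and 59.7, 51.8, 42.8 and 56.6 in SI_Con. It had 97.1, 60.6, 92.3 and 88.8 CPM in GH_EE, 124.5, 121.8, 120.7 and 126.3 in GH_WT, and 119.3, 81.7, 58.3 and 90.7 in GH_Con. All 4 SI_Con libraries were low and all 4 GH_WT libraries high, with little spread inside each, whereas the other 4 groups were spread more widely. Over the 6 groups edgeR gave an adjusted p of 0.315 and DESeq2's likelihood ratio test an adjusted p of 0.0184. The level fell into bands that crossed the groups: 9 libraries at 60.6 CPM or less, 8 from 70.6 to 97.1, and 7 at 117.0 or more, the last being all of GH_WT, SI_WT 2, SI_WT 3 and GH_Con 1. By deviations from group means over 23 libraries without SI_EE 1, the gene most like Ide was Btaf1 (Spearman rho = 0.87). Btaf1 lies 0.334 Mb from Ide on chromosome 19. What sets the bands was not tested.

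The differences of Ide between groups, at unadjusted p, concerned housing without treatment and the WT arm, and the part of the bands in them was not tested. Ide averaged 52.7 ± 7.38 CPM in SI_Con and 87.5 ± 25.2 CPM in GH_Con, a log2 fold change of -0.73 ± 0.24 (SE; 95% interval -1.23 to -0.23; edgeR adjusted p = 0.548). The SI_Con and GH_Con libraries overlapped through GH_Con 3, at 58.3 CPM. Without the 4 libraries in which long genes read lower, 2 of which are SI_Con, the log2 fold change was -0.61 and the edgeR p was 0.0799 unadjusted. Of the 12 marker lists, 2 did not overlap between these groups, both lower in SI_Con. The oligodendrocyte list averaged 6.57 to 7.05 log2 CPM in SI_Con libraries and 7.23 to 7.62 in GH_Con libraries, and the striatal list 5.53 to 6.38 in SI_Con and 6.42 to 6.59 in GH_Con. Their part in the Ide levels was not tested. Ide averaged 92.6 ± 33.6 CPM in SI_WT and 52.7 ± 7.38 CPM in SI_Con, a log2 fold change of 0.81 ± 0.24 (SE; edgeR adjusted p = 1.0). Here the lists without overlap were meninges, at 1.18 to 1.81 log2 CPM in SI_WT and 1.99 to 2.73 in SI_Con, and choroid plexus, at -0.63 to -0.29 in SI_WT and 0.06 to 4.23 in SI_Con. Both mark tissue at the edge of a dissection, and their part in the difference was not tested. In GH mice the WT arm averaged 123 ± 2.53 CPM in GH_WT and 87.5 ± 25.2 CPM in GH_Con without overlap (log2 fold change 0.50, 95% interval -0.00264 to 0.99; edgeR adjusted p = 1.0). Averaged over both housings, the WT arm stood at 108 ± 27.5 CPM and the untreated mice at 70.1 ± 25.3 CPM (SD, n = 8 each; log2 fold change 0.65 ± 0.17 SE, edgeR adjusted p = 1.0). Averaged over the 3 arms, isolated mice were at 72.3 ± 27.0 CPM and GH mice at 98.5 ± 24.2 CPM (SD, n = 12 each; log2 fold change -0.46 ± 0.14 SE, edgeR adjusted p = 0.517; -0.50 without SI_EE 1).

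**Figure D3:**
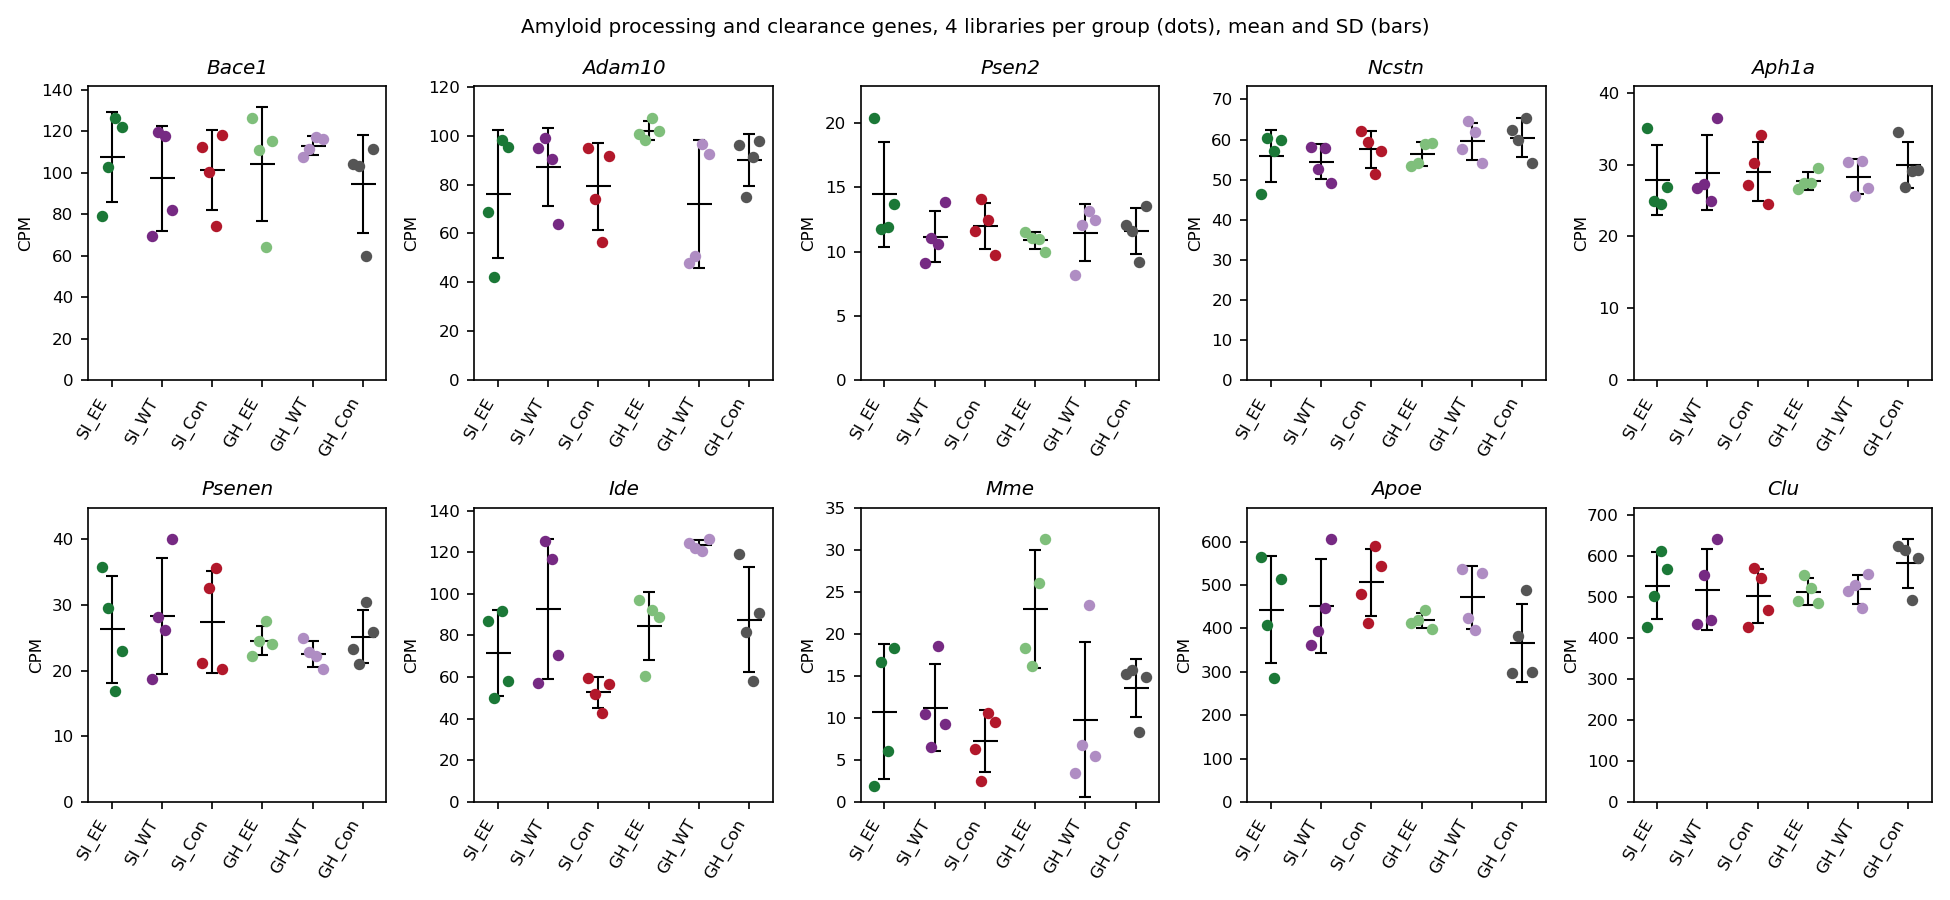
CPM of each of the 10 genes in 6 groups of 4 libraries, with dots for libraries and bars for the mean and SD. Ide is narrow and high in GH_WT (120.7 to 126.3 CPM) and narrow and low in SI_Con (42.8 to 59.7 CPM), and most other genes overlap between all groups.

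Mme, which encodes neprilysin, a membrane metallopeptidase and a main amyloid-beta-degrading enzyme of the brain (ENSMUSG00000027820, chromosome 3, 63241537 to 63386030, plus strand), was the lowest and most variable member. It had 1.92, 16.7, 6.09 and 18.3 CPM in SI_EE, 10.4, 6.55, 18.6 and 9.23 in SI_WT, and 6.35, 2.48, 10.6 and 9.54 in SI_Con. It had 18.3, 16.1, 26.0 and 31.3 CPM in GH_EE, 3.39, 6.80, 23.4 and 5.50 in GH_WT, and 15.2, 15.7, 8.33 and 14.9 in GH_Con. GH_EE was high throughout, and its lowest library was above the highest of GH_Con. The means were 22.9 ± 7.0 CPM in GH_EE and 13.5 ± 3.47 CPM in GH_Con, a log2 fold change of 0.76 with a 95% interval of -0.48 to 2.0 and an edgeR adjusted p of 0.907. The intervals of Mme were the widest among the members. The unadjusted edgeR p was 0.216 in the fit of all groups. With only GH_EE and GH_Con in the fit it was 0.0173 (adjusted 0.284), at a log2 fold change of 0.76. In SI_EE against GH_EE the means were 10.8 ± 8.01 and 22.9 ± 7.0 CPM, with an edgeR log2 fold change of -1.09 (unadjusted p = 0.0838, adjusted 0.626) and overlap between the groups.

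Mme followed the level of 10 striatal marker genes, such as the dopamine receptor genes Drd1 and Drd2, all of which were measured. Over 23 libraries without SI_EE 1, deviations from group means had Pearson r = 0.83 and Spearman rho = 0.81 (permutation p = 8e-05 and 7e-05; adjusted 0.00900 and 0.00840 over 120 pairs of members and marker lists). Without GH_WT 1 and GH_WT 3, the libraries farthest from the median of the list, r was 0.73. The summed striatal level ran from 908 to 1875 CPM in GH_EE and 1253 to 1440 CPM in GH_Con, from 315 to 1653 CPM in SI_EE, and from 720 to 1264 CPM in SI_Con. Striatum borders the medial prefrontal cortex, and Mme was also fitted with the striatal level as a covariate, an alternative chosen after seeing the data. The edgeR log2 fold change was then 0.68 in GH_EE against GH_Con (unadjusted p = 0.0242, adjusted 0.642) and -0.72 in SI_EE against GH_EE (unadjusted p = 0.0220, adjusted 0.999). The fit with this covariate kept SI_EE 1 and was not repeated without that library. With that covariate Mme was also under an unadjusted p of 0.05 for isolation averaged (-0.48), for enrichment averaged (0.52) and over the 6 groups, with edgeR adjusted p from 0.316 to 0.549. In bulk tissue fewer cells of a type and less RNA per cell cannot be told apart.

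Apoe, which encodes the main lipid-carrying apolipoprotein of the brain (ENSMUSG00000002985, chromosome 7, 19696109 to 19699188, minus strand), had 565.4, 408.2, 286.1 and 513.5 CPM in SI_EE, 361.7, 395.0, 446.0 and 606.0 in SI_WT, and 480.4, 412.4, 590.0 and 544.3 in SI_Con. It had 413.6, 420.1, 441.4 and 399.5 CPM in GH_EE, 537.1, 424.7, 395.5 and 528.4 in GH_WT, and 297.8, 381.8, 488.5 and 300.5 in GH_Con. GH_Con held 3 of the 5 lowest libraries, and GH_EE was the narrowest group. Apoe averaged 507 ± 77.3 CPM in SI_Con and 367 ± 89.8 CPM in GH_Con, a log2 fold change of 0.46 ± 0.20 (SE; 95% interval 0.05 to 0.88; edgeR adjusted p = 0.686). The groups overlapped through GH_Con 3 at 488.5 CPM. Leaving out a library at a time moved the log2 fold change between 0.38 and 0.65, with an unadjusted edgeR p of up to 0.0876 (without GH_Con 1). The plaque-associated microglia list has 16 genes and marks cells that raise Apoe in amyloid models. It averaged 2.51 log2 CPM in SI_Con (2.18 to 3.15) and 3.27 in GH_Con (2.44 to 4.06). The astrocyte list averaged 7.05 log2 CPM in SI_Con (6.92 to 7.15) and 7.28 in GH_Con (7.12 to 7.41). Both lists overlapped between the groups. The oligodendrocyte and striatal lists, given above for Ide, were lower in SI_Con without overlap. The part of these lists in the Apoe levels was not tested.

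Clu, which encodes clusterin, an extracellular chaperone that binds amyloid-beta (ENSMUSG00000022037, chromosome 14, 65968483 to 65981547, plus strand), ran from 425.9 to 641.7 CPM over 24 libraries. Group means ran from 503 ± 66.5 CPM in SI_Con to 582 ± 60.3 CPM in GH_Con, every pair of neighbouring groups overlapped, and in the fit of all 24 libraries no comparison had an unadjusted edgeR p under 0.05. Clu in SI_Con against GH_Con had a log2 fold change of -0.21 there (unadjusted edgeR p 0.129, edgeR adjusted p = 0.844). It was -0.25 with the length slope as a covariate (unadjusted edgeR p 0.0462, adjusted p = 0.537), -0.34 without the 4 libraries with lower long genes (unadjusted 0.0326, adjusted p = 0.666) and -0.35 without those 4 and SI_EE 1 (unadjusted 0.00877, adjusted p = 0.285). Without those 5 libraries Clu was also under an unadjusted edgeR p of 0.05 in SI_EE against SI_Con (0.33), in the interaction of enrichment with housing and over the 6 groups, with adjusted p from 0.319 to 0.592. Within groups Clu followed the reactive astrocyte list, which includes Gfap and Serpina3n, over 23 libraries without SI_EE 1 (r = 0.85, rho = 0.80; permutation p = 0.00015 and 0.00039; adjusted 0.00900 and 0.0234 over the 120 pairs). Without GH_Con 3 and SI_Con 3, the farthest from the list's median, r was 0.85. With all 24 libraries r was 0.74, and the adjusted p was 0.0828 for r and 0.128 for rho. Of the 120 pairs, Mme with striatum and Clu with reactive astrocytes were the only ones past adjusted p 0.05 for both r and rho in 23 libraries. In the 19 libraries left without the 4 with lower long genes neither pair passed: r was 0.86 for Mme with striatum (permutation, adjusted p = 0.0960 for r and 0.124 for rho) and 0.82 for Clu with reactive astrocytes (adjusted p = 0.191 for r and 0.124 for rho).

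**Figure D4:**
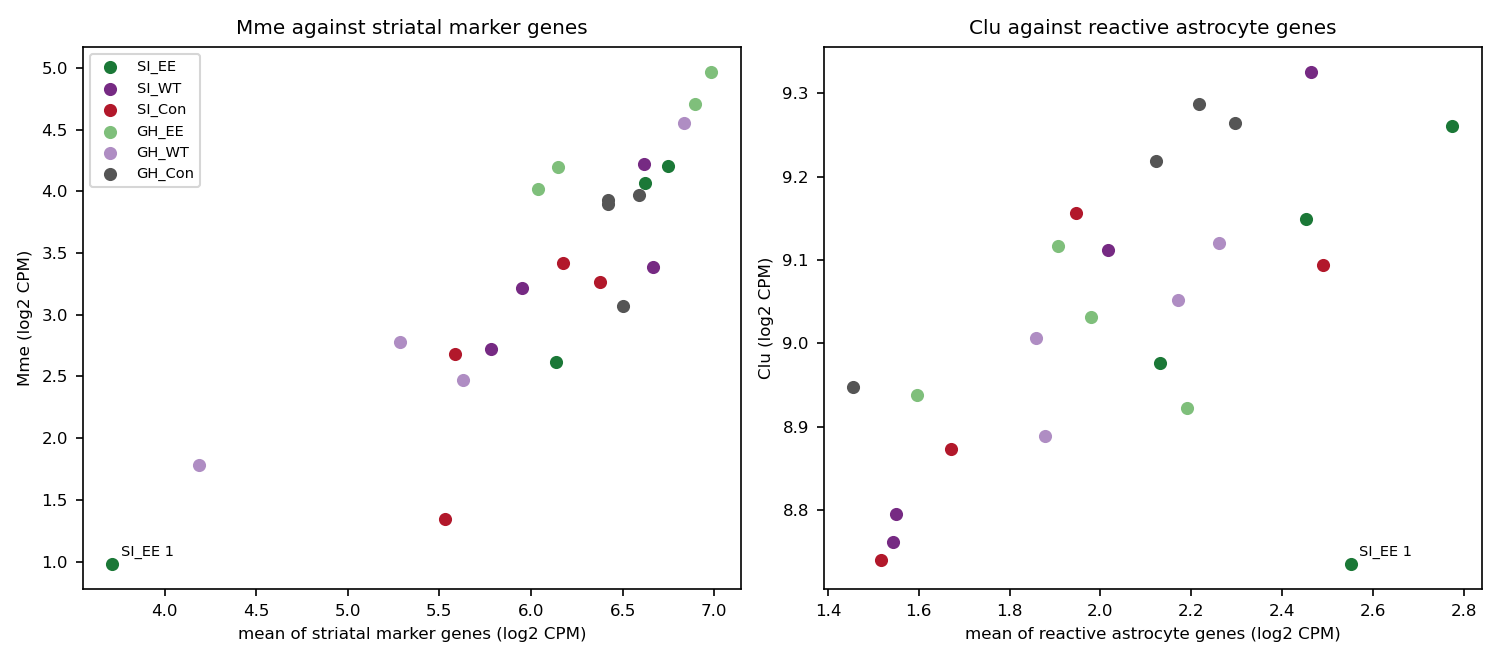
Log2 CPM of Mme against the mean of 10 striatal marker genes, and of Clu against the mean of the reactive astrocyte genes, with a dot for each of 24 libraries coloured by group and SI_EE 1 named. Within-group deviations in the 23 libraries without SI_EE 1 had r = 0.83 for Mme and r = 0.85 for Clu.

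Across the 7 comparisons of group pairs, edgeR called 0 of the 10 members at adjusted p under 0.05 each time. The share of all 20354 genes called was 0% in SI_Con against GH_Con, SI_EE against SI_Con, SI_WT against SI_Con, GH_WT against GH_Con and SI_WT against GH_WT, and 0.00491% (1 gene) in GH_EE against GH_Con and in SI_EE against GH_EE. Limma-voom and DESeq2 also called 0 members in these 7 comparisons. In the 3 averaged comparisons and the 2 interactions edgeR called 0 members and 0% of genes. In the test over 6 groups edgeR called 0 members and 0.0491% of genes, limma-voom 0 members, and DESeq2 1 member, Ide. The share of all genes that DESeq2 called in that test was not counted, so its call of Ide cannot be set against that share.

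At unadjusted p under 0.05, each test held 0 to 2 of the 10 members. In SI_Con against GH_Con 2 of 10 members, Ide and Apoe, were under it, beside 6.53% of all genes. In SI_EE against SI_Con it was 0 of 10, beside 12.6%. In SI_WT against SI_Con it was 1 of 10, Ide, beside 3.84%. Enrichment and the WT arm in GH mice gave 0 of 10 each, beside 6.32% for GH_EE against GH_Con and 3.42% for GH_WT against GH_Con. Housing within a treatment gave 1 of 10, Psen2, beside 8.70% in SI_EE against GH_EE, and 0 of 10 beside 5.37% in SI_WT against GH_WT. Averaged over arms, isolation gave 1 of 10 (Ide) beside 8.61%, enrichment 0 of 10 beside 11.5%, and the WT arm 1 of 10 (Ide) beside 2.52%. The interaction of enrichment with housing gave 0 of 10 beside 7.74%, that of the WT arm with housing 0 of 10 beside 4.52%, and the test over 6 groups 1 of 10 (Ide) beside 8.23%.

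Groups that did not overlap were also few. In GH_EE against GH_Con 2 of 10 members, Adam10 and Mme, did not overlap, beside 8.55% of all genes. In SI_EE against GH_EE it was Psen2 and Adam10, 2 of 10 beside 4.36%, and in GH_WT against GH_Con it was Ide, 1 of 10 beside 4.23%. For Adam10 the gap was narrow in both comparisons, as given above. In SI_Con against GH_Con (4.56% of genes), SI_EE against SI_Con (4.63%), SI_WT against SI_Con (2.11%) and SI_WT against GH_WT (3.60%) it was 0 of 10. The median log2 fold change of the 10 members lay between -0.06 and 0.02 over the 7 comparisons, beside -0.02 to 0.02 for all genes.

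**Figure D5:**
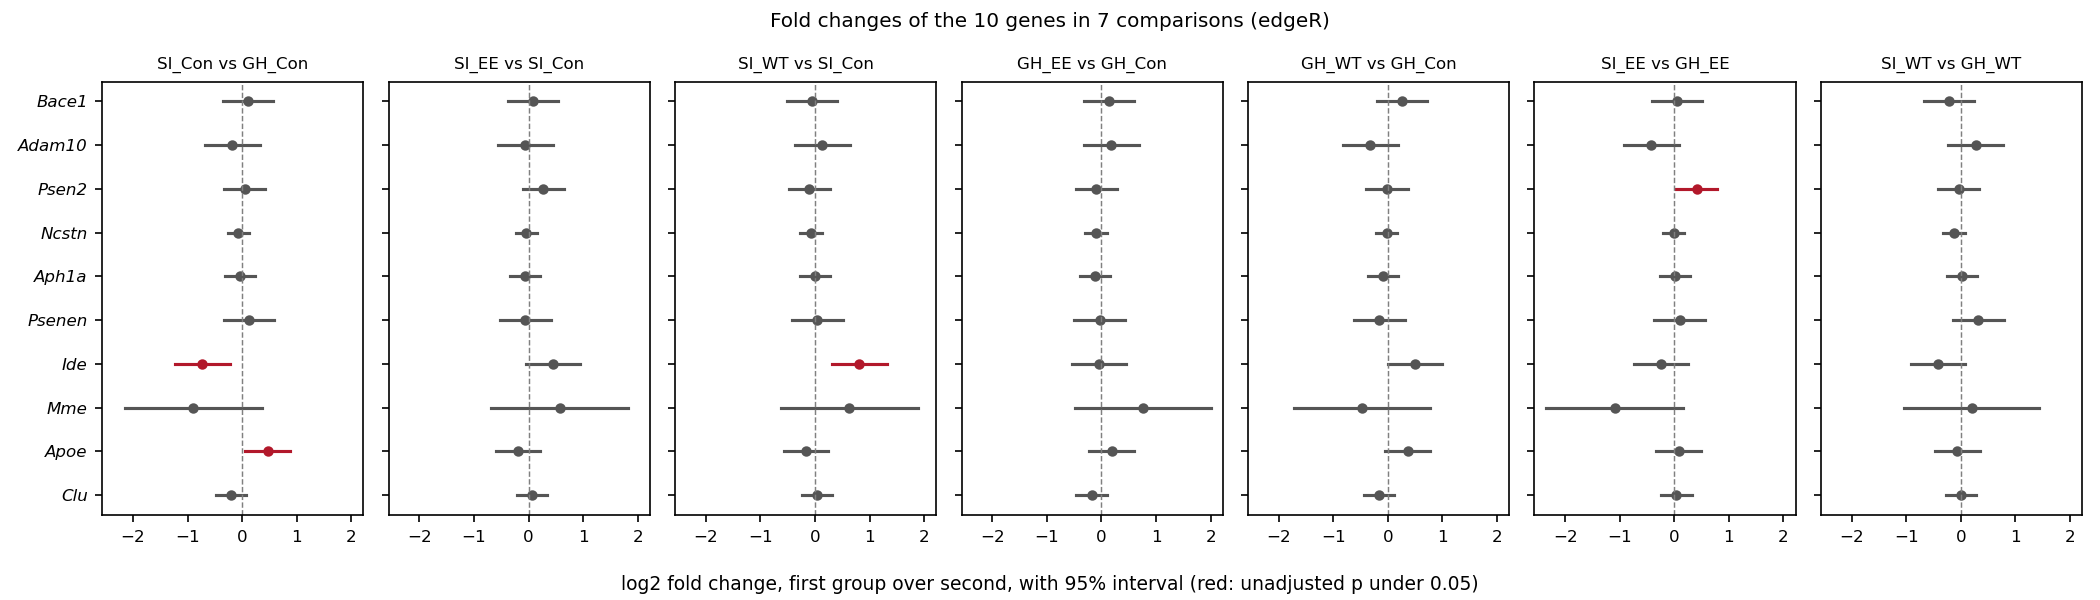
Log2 fold changes (first group over second) of the 10 genes in 7 comparisons from edgeR, with 95% intervals and red for an unadjusted p under 0.05. Ide in SI_Con against GH_Con (-0.73) and in SI_WT against SI_Con (0.81), Apoe in SI_Con against GH_Con (0.46) and Psen2 in SI_EE against GH_EE (0.41) are red, and the intervals of Mme are the widest.

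A further 64 genes of the amyloid pathway, such as another Aph1 gene, APP adaptors and protease inhibitors, were listed, and 63 passed the filter. None passed an adjusted p under 0.05 with edgeR in any of the 13 tests. Over the 6 groups DESeq2's adjusted p was 0.00817 for Apba3, and limma-voom's was 0.686. In SI_Con against GH_Con 4 of 63 were under unadjusted p 0.05, 1 higher and 3 lower, beside 6.53% of all genes. Apba3, an adaptor that binds the APP tail, averaged 11.98 ± 0.503 CPM in SI_Con and 7.48 ± 1.67 CPM in GH_Con (log2 fold change 0.68, edgeR adjusted p = 0.525). The SI_WT mice were at 7.21 ± 1.28 CPM of Apba3, against the same SI_Con (log2 fold change -0.73, edgeR adjusted p = 1.0). Both comparisons share the SI_Con libraries.

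In SI_EE against SI_Con 7 of 63 pathway genes were under unadjusted p 0.05, all higher, beside 12.6% of all genes (7.03% higher and 5.56% lower). Without SI_EE 1 it was 4 of 63, again all higher, beside 10.5% (971 genes higher and 1205 lower). The genes lost included Ece2, an endothelin-converting enzyme (0.81 with SI_EE 1 and 0.08 without), and Lcat, which esterifies cholesterol on lipoproteins (0.82 and 0.19). Tspan15, a tetraspanin that steers ADAM10 to its substrates, averaged 22.6 ± 9.70 CPM in SI_EE and 12.97 ± 2.49 CPM in SI_Con (log2 fold change 0.80, edgeR adjusted p = 0.176; DESeq2 adjusted p = 0.0323). For Tspan15 the edgeR log2 fold change was 0.47 without SI_EE 1 (adjusted p = 0.396) and 0.94 without SI_EE 2 (adjusted p = 0.0465). Aph1b, the alternative Aph1 subunit of gamma-secretase, averaged 38.3 ± 2.36 CPM in SI_EE and 30.9 ± 2.40 CPM in SI_Con (0.31, edgeR adjusted p = 0.202; 0.35 without SI_EE 1). In SI_EE against GH_EE 6 of 63 were under it, 5 higher and 1 lower, beside 8.70% of all genes. Without SI_EE 1 it was 1 of 63, a lower one, beside 3.72%: Pitrm1, a mitochondrial peptidase, named after its value was seen. Tspan15 then had a log2 fold change of 0.26 (0.60 with SI_EE 1) and Lcat 0.03 (0.66 with SI_EE 1). Abca7, a lipid transporter, averaged 45.3 ± 33.0 CPM in SI_EE and 24.6 ± 0.938 CPM in GH_EE (0.88, edgeR adjusted p = 0.412; 0.23 without SI_EE 1). In SI_WT against GH_WT 6 of 63 were under it, all lower, beside 5.37% of all genes (1.76% higher and 3.61% lower). Timp3, an inhibitor of metalloproteases, averaged 88.1 ± 6.40 CPM in SI_WT and 119 ± 27.0 CPM in GH_WT (-0.44, edgeR adjusted p = 0.747). The counts were 7 of 63 beside 3.84% in SI_WT against SI_Con, 2 of 63 beside 6.32% in GH_EE against GH_Con and 0 of 63 beside 3.42% in GH_WT against GH_Con.

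Members varied together within groups in a few pairs, given here as a description over 23 libraries without SI_EE 1. Bace1 and Ide had r = 0.63, Aph1a and Psenen 0.63, Psen2 and Clu 0.58, and Aph1a and Clu 0.51. Adam10 and Psenen had r = -0.60 and Ncstn and Clu r = -0.64. The other 39 of 45 pairs lay within 0.5 of 0. The slope of expression on gene length in a library, related to the members after the data had been seen, had r = 0.62 with Adam10 (rho = 0.58; permutation p = 0.00166 and 0.00616; adjusted 0.0166 and 0.0545 over 10 relations). It had r = -0.74 with Psenen (rho = -0.62; permutation p = 0.0157 and 0.0243; adjusted 0.0787 and 0.0545), and r = -0.59 without SI_Con 3 and SI_WT 4. Psenen, with 1275 exonic bases, is the shortest member. Adam10, with 4913, is shorter than Mme (11542), Ide (7506) and Bace1 (6348). The part of exon length in these relations was not tested.

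The genes whose within-group deviations were most like those of each member, by Spearman's rho over 23 libraries and 9842 genes, were given for the first 3 in rank. Ide was most like Btaf1 (rho = 0.87), a gene 0.334 Mb away on chromosome 19, then Shank3 and Mut. Mme was most like Syndig1l (0.82), Onecut2 and Penk, the last a striatal marker (0.81). Adam10 was most like Dlg2 (0.87), Dpy19l4 and Unc13c, and Bace1 like Ptprj (0.84), Rps27rt and Ppard. Apoe was most like Mrpl21 (0.75), Tmem25 and Ubac2, and Clu like Pnrc2 (0.84), Aldh9a1 and Crtc2. Among the gamma-secretase subunits, Ncstn was most like Gphn (0.85), Gdap2 and Rnmt, Aph1a like mt-Nd1 (0.84), Rpl17-ps10 and Slc7a6os, Psenen like Mrps16 (0.83), Mrps5 and Fmc1, and Psen2 like Elovl1 (0.77), Elp5 and Prdx4.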

How the data were processed

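RNA of 24 medial prefrontal cortex samples was extracted with Trizol and sequenced on an Illumina platform, per the labels' protocols. The authors deposited whole-number read counts per gene, not normalised, as judged from the values; the build is mm10 per the submitters' processing notes, while aligner, counter and strand setting were not given in the sources used here. All count columns were mapped to a sample by title.

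Counts were tested with edgeR 4.0.16 (quasi-likelihood, TMM, filterByExpr, robust) in R 4.3.3, with all 24 libraries in 1 fit, no covariate, and Benjamini-Hochberg adjustment over 20354 genes; DESeq2 1.42.0 and limma 3.58.1 were alternatives. CPM used TMM-scaled totals, log2 CPM a prior count of 2, and CPM per kb the exon union of GENCODE M21 (GRCm38). Total counts of 33683587 to 51274917 gave members 76 to 23175 reads per library. Relations to marker lists used 100000 permutations within groups. The steps were tested on simulated data. The 10 members are always named; a member's fold change is given with its p where the unadjusted p was under 0.05, or where groups did not overlap, the latter chosen after the values were seen. Pathway genes are named from the 4 smallest p per comparison, and some items are not reported here. Members, lists and tests were chosen with earlier results of these data known.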

Additional observations from a re-analysis of the deposited data

Results flagged for a closer look

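In 3 of 60 groups of 4 libraries (10 genes in 6 groups), a library stood apart from the other 3 of its group. Chance gives about 1 such library in 20 groups, so 3 of 60 is the number that chance alone would give. Bace1 was at 59.8 CPM in GH_Con 3, against 103 to 112 CPM in the other 3 GH_Con libraries. Mme was at 23.4 CPM in GH_WT 3, against 3.39 to 6.80 CPM in the other 3 GH_WT libraries. Mme was at 8.33 CPM in GH_Con 3, against 14.9 to 15.7 CPM in the other 3 GH_Con libraries. No cause of these values was tested.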

How the results depend on the processing

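Of 316 counts of called members under the alternatives (other scaling, filter, tool, covariate or libraries), 315 stayed at 0. The exception was the test over 6 groups with DESeq2, which called 1 member, Ide, and for which the share of all genes called was not counted. All 120 group means of the members recomputed with another scaling stayed within 1 SD. The number of pairs of a member and a marker list past adjusted p was 2 in 23 libraries, 1 with all 24 libraries and 0 without the 4 libraries with lower long genes, where 19 libraries remained. The unadjusted p of Ide over 6 groups lay between 8.09e-05 (DESeq2) and 0.0377 (edgeR without those 4 libraries and SI_EE 1, an alternative added after seeing the data). The log2 fold change of Ide in SI_Con against GH_Con lay between -0.86 and -0.54 when a library at a time was left out. Replicate numbers did not pair the samples: same-numbered libraries had mean correlations of -0.034 to -0.008, and 4 of 24 libraries correlated best with their own number. With the replicate block edgeR called 0 members in each of the 13 tests, and the unadjusted p of Ide over 6 groups was 0.00368. With the sex read from each library as a covariate, Ide and Apoe stayed under an unadjusted edgeR p of 0.05 in SI_Con against GH_Con. Mme had the fewest counts of the members, down to 76 reads in a library, and the widest intervals.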
